A study of Mus musculus with 157 samples.

Results

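The comparison covers the step from DN2 to DN3 in sorted thymocytes of control mice, the step at which early T cell precursors give up other fates. Its members are the libraries of the earlier-dated of 2 sequencing runs that carry the genotype RERT2-Cdc20(+/D), the source Non-tumoral thymus and the tissue Normal Thymus_DN2 (n = 8) or Normal Thymus_DN3 (n = 8), which makes 16 of the 157 libraries of the series. All 16 share the RERT2 driver and 1 altered Cdc20 allele, written D in the labels beside the + allele, so none is a wild type, and the labels give no age, treatment or animal. The series set such controls against Cdc20(D/AAA) mice and their thymic tumours. Each library came from cells sorted straight into lysis buffer, per the labels' protocol. Since no label says that libraries came from separate mice, every p-value measures the spread between these samples. In bulk RNA, fewer cells of a type and less RNA per cell cannot be told apart.

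As background, CD4 and CD8 double negative (DN) thymocytes are staged by surface CD44, KIT and CD25 (encoded by Il2ra). DN2 cells carry all of these, and DN3 cells have lost CD44 and most KIT. During the DN2 stage, Notch signals, TCF-1 (Tcf7), GATA3 and then BCL11B fix the T cell fate, while regulators inherited from the bone marrow progenitor, such as PU.1 (Spi1), are shut off. DN3 cells then rearrange the T cell receptor beta locus and test the new beta chain with the pre-T alpha chain, encoded by Ptcra, in the pre-T cell receptor.

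The stage labels were read against these markers in CPM (counts scaled to library size, with TMM factors). Cd44 ran from 0.948 through a median of 6.87 to 11.8 CPM in DN2 libraries and from 0 through 0.307 to 1.35 in DN3 libraries, so that the groups overlapped only where the lowest DN2 library (replicate 3) met the highest DN3 library. It fell by 3.95 ± 0.70 on the log2 scale (log2 fold change ± SE, edgeR quasi-likelihood test with Benjamini-Hochberg adjustment, adjusted p = 0.00119), and by 3.33 without DN2 replicates 2, 4 and 8, where it just missed the threshold (adjusted p = 0.0507). Kit ran from 34.4 through 65.1 to 104 CPM at DN2 and from 10.2 through 26.9 to 69 at DN3, and the ranges overlapped. Its log2 difference of -0.97 ± 0.34 did not pass (adjusted p = 0.136), although it did in DESeq2 (0.0322), in voom (0.0331), without DN3 replicate 2 (0.0365) and in the libraries without Xist (-1.83, adjusted p = 0.00715). The difference was -0.79 (adjusted p = 0.394) without DN2 replicates 2, 4 and 8. In the libraries with Xist it was 0.0131 (adjusted p = 0.998). Il2ra was at 503 to 789 CPM at DN2 and 317 to 746 at DN3 (log2 difference -0.40 ± 0.16, adjusted p = 0.219), against a mean of 13.8 CPM in 6 DN1 libraries on the scale of all sorted stages.

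The DN2 libraries were less alike than the DN3 libraries. Immunoglobulin kappa counts, from segments that B cells rearrange, came to 7062, 7784 and 27880 CPM in DN2 replicates 2, 4 and 8, to between 3.37 and 661 in the other DN2 libraries and to at most 5.20 at DN3. Summed over 12 B and plasma cell markers, DN2 libraries held 414 to 29520 CPM and DN3 libraries 352 to 559. Of the 9 markers that could be tested, 3 were lower at DN3 (Cd79a, Igkc and Jchain), and the DN2 maximum without the 3 libraries was 1066. Without them the log2 difference of Jchain went from -8.47 to -2.01 and lost its call (adjusted p = 0.451), and that of Igkc went from -10.64 to -5.79 (adjusted p = 0.0155). The sum of 11 dendritic cell markers was 190 to 835 CPM at DN2 and 170 to 306 at DN3, with Cd74, H2-Eb1 and H2-Aa lower among 5 tested and Clec9a at 0 in all 16 libraries. With voom quality weights no B cell or dendritic marker passed. Of the myeloid and the mast cell lists only 1 gene each could be tested, Lyz2 and Cpa3, and both were lower. Fcer1a, Ms4a2, Prss34, Cma1 and Tpsb2, all on the list of mast cell and basophil markers, were at 0 throughout. The remaining members besides Cpa3 had counts but were too low to test. The first principal component (19.3% of the variance) separated the stages and put DN2 replicates 2, 4 and 8 farthest from DN3. The second (10.8%) followed Xist, the RNA of the inactive X chromosome, which was present in 4 DN2 and 3 DN3 libraries and absent in the other 4 and 5. Replicates 2, 4 and 8 were all among the DN2 libraries without it. Libraries held 3784797 to 11595463 counts at DN2 and 7205952 to 10114569 at DN3. The part of these other cells in the results was not tested, and values without replicates 2, 4 and 8 are given where a named gene's call was lost without them.

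Between DN3 and DN2, 452 of 12477 genes tested passed an adjusted p of 0.05. Of these 138 were higher at DN3 (1.11% of those tested) and 314 were lower (2.52%). At least a 2-fold change was also seen for 83 of the higher (0.665%) and 155 of the lower genes (1.24%). The median log2 fold change of all genes tested was 0.01. Falls were more frequent and larger than rises among the genes named below. Without DN2 replicates 2, 4 and 8 there were 196 calls, 62 higher and 134 lower, and 188 of them were among the 452. Libraries of the 2 stages did not overlap for 126 of the genes called. Over all 12477 genes tested, 43 lay above at DN3 with no overlap and 87 below.

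The regulators that DN2 cells share with bone marrow progenitors were the group with the most falls among transcription factors. Of 25 listed, 16 were tested, 7 were lower and none was higher, beside 2.52% and 1.11% of all genes tested. Their median log2 fold change was -1.33. The lists were chosen with earlier results of these data known, so a ranking of lists only describes them. Nfe2, a bZIP factor known from megakaryocytes and red cell precursors, ran from 74.7 through a median of 106 to 168 CPM at DN2 and from 10.3 through 16.6 to 26.1 at DN3. No DN3 library reached a DN2 library, and Nfe2 fell by 2.70 ± 0.22 on the log2 scale (adjusted p = 1.28e-07), the smallest p of all genes. Hhex, a homeobox factor of blood progenitors (chromosome 19, 37434810 to 37440731, GRCm38), ran from 1.21 through 7.21 to 20.2 CPM at DN2 and from 0 through 0.0962 to 0.208 at DN3. The groups did not overlap, although all 8 DN3 libraries together held 6 counts of it against 523, and it fell by 6.50 ± 0.74 (adjusted p = 5.59e-06).

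Spi1, which encodes the ETS factor PU.1 of myeloid and B cells (chromosome 2, 91082390 to 91115756), ran from 6.86 through 10.7 to 29.6 CPM at DN2 and from 0 through 0.831 to 5.07 at DN3. The groups did not overlap, although DN3 replicate 1 stood above the other DN3 libraries, of which the next held 1.51. Spi1 fell by 3.57 ± 0.66 (adjusted p = 0.00187). Its 3 highest DN2 values, 29.6, 22.9 and 24.1 CPM, belonged to replicates 2, 4 and 8, as did the 3 highest of Hhex. Without these libraries the log2 difference of Spi1 was -2.82 (adjusted p = 0.0755), while Hhex still fell by 5.47 (adjusted p = 0.000872). Erg, an ETS factor of blood stem cells, fell from a mean of 30.1 ± 10.1 (SD, n = 8) to 9.72 ± 1.21 CPM with no overlap.

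Ly6a, which encodes Sca-1, and the bZIP factor gene Cebpb fell by 1.83 and 1.39 on the log2 scale. Bcl11a, a zinc finger factor of lymphoid progenitors, fell by 1.44 ± 0.39 (adjusted p = 0.0374), a call that was lost without replicates 2, 4 and 8 (adjusted p = 0.116) and in 9 of the 16 fits that left out 1 library. The other 9 members tested did not pass. Mef2c (log2 difference -0.98 ± 0.40), Runx2 (-1.26 ± 0.38) and Fes (-1.99 ± 0.66) lay below 0. Gfi1b, a repressor of blood progenitors, lay above it at 2.41 ± 0.84 (adjusted p = 0.127). Lmo2, Lyl1 and Flt3 were too low to test, with means of 1.71, 1.21 and 0.228 CPM at DN2.

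**Figure D1:**
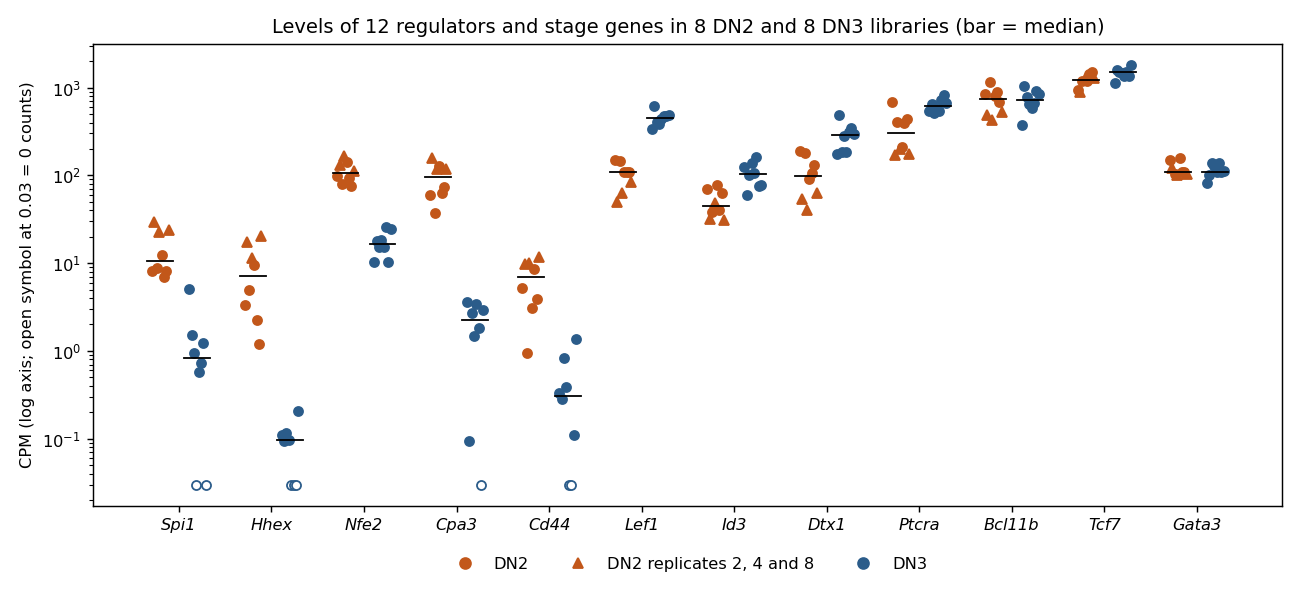
CPM (log axis) of 12 genes in each of 8 DN2 and 8 DN3 libraries, with medians as bars and triangles for DN2 replicates 2, 4 and 8. Spi1, Hhex, Nfe2, Cpa3 and Lef1 show no overlap of the stages, and the stages overlap for Bcl11b, Tcf7 and Gata3.

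The core T-lineage factors Bcl11b, Tcf7, Gata3 and Runx1 had overlapping levels on both sides of the step, and none was called. Bcl11b, the zinc finger factor that marks commitment, ran from 430 through a median of 747 to 1144 CPM at DN2 and from 370 through 722 to 1055 at DN3. The groups overlapped almost wholly, and the log2 difference was 0.01 ± 0.20 (adjusted p = 0.986). Its sign was not stable, since the value was -0.25 without DN2 replicates 2, 4 and 8. Tcf7 ran from 895 to 1524 CPM at DN2 and from 1136 to 1809 at DN3 (0.28 ± 0.12, adjusted p = 0.249). Gata3 had means of 119 ± 22.8 and 115 ± 19.6 CPM and Runx1, a RUNX factor of all blood cells, 231 ± 40.8 and 195 ± 50.8, and neither passed.

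Among 23 tested T-lineage identity factors, 5 were higher and 1 lower, beside 1.11% and 2.52% of all genes tested. Their median log2 fold change was 0.15. Lef1, the HMG box partner of TCF-1 (chromosome 3, 131110471 to 131224356), ran from 49.6 through 109 to 149 CPM at DN2 and from 337 through 455 to 623 at DN3. Every DN3 library stood far above every DN2 library, and Lef1 rose by 2.15 ± 0.19 on the log2 scale (adjusted p = 2.5e-07). It kept its call under every alternative tried, including the libraries with Xist taken alone (2.05, adjusted p = 0.000941). Id3, which blocks E protein transcription factors, had means of 50 ± 17.9 and 105 ± 34.8 CPM with overlapping libraries and rose by 1.08 ± 0.22 (adjusted p = 0.00428). Its rise was 0.86 without DN2 replicates 2, 4 and 8 and did not pass (adjusted p = 0.0793).

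Ikzf3 (Aiolos) and Ets2 rose by 1.76 ± 0.37 and 1.47 ± 0.31. Runx3, a RUNX factor of cytotoxic and innate lymphocytes, fell by 1.07 ± 0.25 (adjusted p = 0.0116). The other 17 tested, among them the E protein genes Tcf3 and Tcf12, Ets1, Satb1, Tox and Myb, did not pass.

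Of the promoters that RefSeq lists for GRCm38.p6, those of Lef1 and Cpa3, a gene that rose and a gene that fell with no overlap of libraries, are shown for the 250 bases before the first listed start (5′ to 3′ on the gene's strand). Capitals mark each match, on either strand, to TGGGAA (the core of the Notch partner RBPJ), GATAA (known from GATA3 and its kin), GAGGAA (a PU.1 core), CTTTGA (a TCF and LEF core) or CANNTG (the E-box).
Lef1, chr3:131110047-131110296, plus strand: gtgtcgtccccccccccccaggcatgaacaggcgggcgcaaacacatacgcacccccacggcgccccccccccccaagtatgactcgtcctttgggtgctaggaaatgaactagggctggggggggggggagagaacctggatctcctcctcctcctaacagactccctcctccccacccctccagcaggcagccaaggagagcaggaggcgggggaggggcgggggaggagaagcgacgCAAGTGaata
Cpa3, chr3:20242182-20242431, minus strand: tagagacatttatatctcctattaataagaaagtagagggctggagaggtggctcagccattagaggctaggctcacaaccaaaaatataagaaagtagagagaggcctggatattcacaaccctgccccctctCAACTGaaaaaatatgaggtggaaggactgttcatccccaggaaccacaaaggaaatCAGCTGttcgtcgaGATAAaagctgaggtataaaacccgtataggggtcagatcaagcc
The Lef1 stretch holds 1 E-box match, and that of Cpa3 holds 2 E-box matches and 1 GATAA match. Over all 32851 listed promoters, cut to the same 250 bases, 66.2% hold CANNTG, 22.6% GATAA, 23.3% GAGGAA, 21.6% TGGGAA and 13.8% CTTTGA. Of the genes called, 86 of 138 higher and 233 of 314 lower ones matched a listed promoter. CANNTG stood in 60.6% of the promoters of the higher genes, 60% of those of the lower genes and 57.3% of those of all genes tested. In the same order GAGGAA stood in 25.7%, 26.4% and 21.8%, and TGGGAA in 16.5%, 22% and 20.1%. GATAA stood in 11.9%, 17.6% and 14.9%, and CTTTGA in 10.1%, 11.9% and 10.6%. These shares were not tested. A match is a description of letters.

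Of 16 Notch receptors and targets tested, 1 was higher and none lower, beside 1.11% and 2.52% of all genes tested. Dtx1, a Notch target that encodes the ubiquitin ligase Deltex, ran from 40.6 through a median of 98.7 to 191 CPM at DN2 and from 176 through 288 to 484 at DN3. Only the ends of the ranges overlapped, and it rose by 1.41 ± 0.31 (adjusted p = 0.0141). Hes1 (134 ± 19.9 and 127 ± 27.4 CPM), Nrarp (11.5 ± 4.24 and 10.3 ± 5.59) and Notch1 (690 ± 385 and 817 ± 206) did not pass. Notch3 had means of 63.4 ± 43.3 and 118 ± 27.2 CPM, a log2 difference of 0.90 ± 0.36 (adjusted p = 0.211). It was 0.49 without DN2 replicates 2, 4 and 8. It passed in voom (adjusted p = 0.0316), without DN2 replicate 3 (adjusted p = 0.0455), in the libraries without Xist (1.68, adjusted p = 0.00382) and with Xist as a covariate (1.20, adjusted p = 0.00795). The libraries with Xist gave 0.59 (adjusted p = 0.734), and a test of the interaction of stage and Xist called 0 of 12477 genes by edgeR, with 829 at an unadjusted p under 0.05.

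Genes of the pre-T cell receptor and of signalling close to it moved in both directions, with 4 higher and 2 lower of 22 tested. Over all genes tested the shares were 1.11% higher and 2.52% lower. Ptcra (chromosome 17, 46755663 to 46763712) ran from 172 through 301 to 684 CPM at DN2 and from 511 through 610 to 820 at DN3. A single DN2 library, replicate 1 at 684 CPM, reached into the DN3 range. The log2 difference of 0.91 ± 0.25 just missed the threshold (adjusted p = 0.0506). It passed in DESeq2 (adjusted p = 0.0382), voom (0.0127), with Xist as a covariate, in the libraries without Xist and in the fits without DN2 replicate 1 (1.14, adjusted p = 0.00146) or 7 (0.97, adjusted p = 0.0481). It was 0.56 (adjusted p = 0.231) without DN2 replicates 2, 4 and 8, the libraries with its lowest values (172, 198 and 177 CPM). These replicates are all among the DN2 libraries without Xist, and in the libraries with Xist the difference was 0.57 (adjusted p = 0.539).

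Of the CD3 chains, which carry the receptor signal, Cd3d rose by 0.67 ± 0.15 (635 ± 177 to 1007 ± 176 CPM), Cd3g fell by 0.43 ± 0.11 (3033 ± 443 to 2245 ± 317) and Cd3e did not pass (0.11 ± 0.14). The calls of Cd3d and Cd3g were lost without DN2 replicates 2, 4 and 8 (adjusted p = 0.183 and 0.0755). Zap70, the kinase recruited to CD3, ran from 21.3 through 28.4 to 42.3 CPM at DN2 and from 45.9 through 56.3 to 75.1 at DN3. Its libraries did not overlap and it rose by 0.94 ± 0.16 (adjusted p = 0.000863). The costimulatory receptor Cd28 also rose without overlap, from 20.2 ± 5.67 to 49.6 ± 7.09 CPM (1.3 ± 0.18). The adhesion receptor Cd2 rose by 1.65 ± 0.34 and the kinase Prkcq fell by 0.42 ± 0.12. In the 16 fits that each left out 1 library, Prkcq lost its call in 10 and Cd3g in 7. Prkcq also lost it without DN2 replicates 2, 4 and 8 (adjusted p = 0.077).

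Of 14 genes of V(D)J recombination, edgeR called 0, 2 had an unadjusted p under 0.05, and DESeq2 called 1. With 1.11% higher and 2.52% lower over all genes tested, 0 of 14 lies near those shares. Rag1 had means of 51.3 ± 28.8 and 85.9 ± 59.3 CPM (0.75 ± 0.45), Rag2 80.9 ± 20.3 and 88 ± 28.2, and Dntt, the polymerase that adds bases at joins, 2156 ± 299 and 1711 ± 280.1 (-0.33 ± 0.12). The Rag1 difference passed with Xist as a covariate (0.86, adjusted p = 0.032) and was 0.41 without DN2 replicates 2, 4 and 8.

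**Figure D2:**
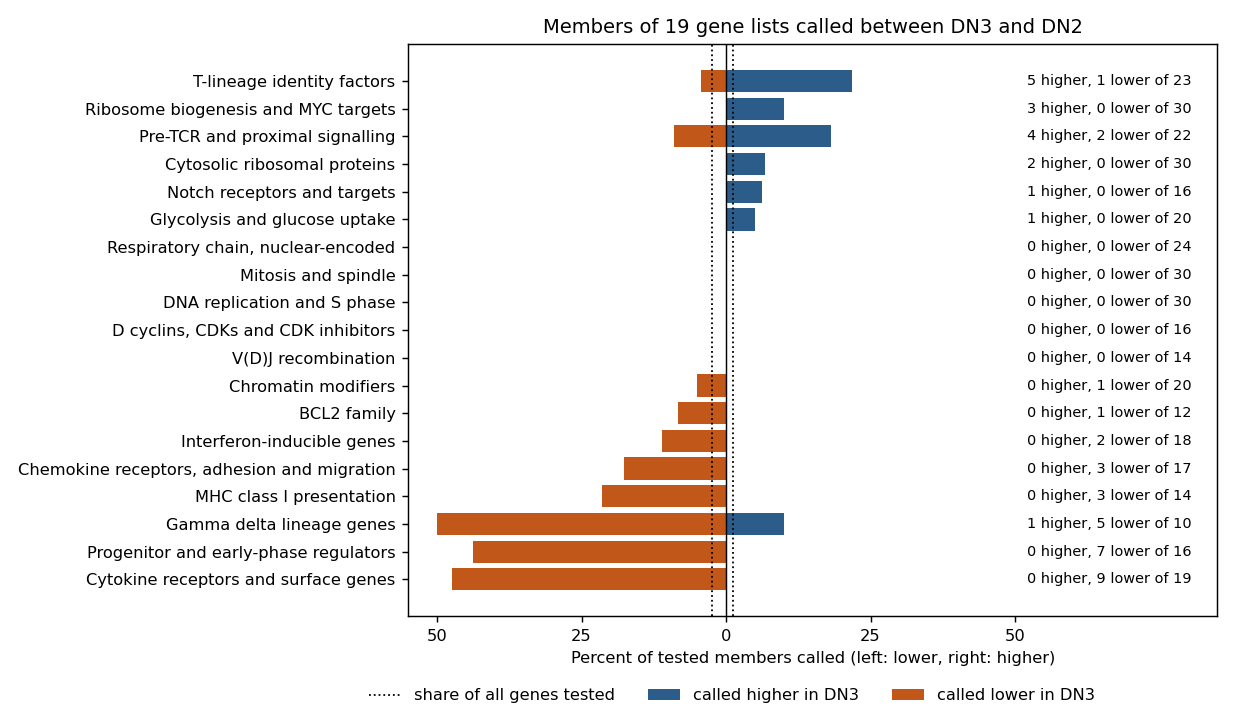
Percent of the tested members of 19 gene lists called higher (right, blue) or lower (left, orange) at DN3, with dotted lines at 1.11% and 2.52% of all genes tested. The longest bars to the left belong to gamma delta, surface receptor and progenitor genes, and the longest to the right to T-lineage identity factors.

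Counts over the receptor loci changed by segment class. Summed over 35 beta variable segments (Trbv), every DN2 library held 101 to 181 CPM and every DN3 library 316 to 580. The groups did not overlap, and the difference in mean log2(CPM + 1) was 1.57 (exact permutation test over the 16 libraries, 2-sided, adjusted p = 0.000932 over 12 locus sums, from the smallest p these libraries can give, 0.000155). Of 21 Trbv segments tested singly, 19 were higher and none lower, beside 1.11% and 2.52% of all genes tested. Their median log2 fold change was 2.04. Trbv3, Trbv5 and Trbv1 rose by 2.32, 2.21 and 2.23. The beta constant genes and the summed joining segments did not pass (-0.20 and -0.19), although Trbj1-1 and Trbj1-2 fell by 1.87 and 1.37. Trbc1 alone differed by -0.47 (adjusted p = 0.0582) and passed in DESeq2 (0.0212), in voom (0.0142), with Xist as a covariate (0.012), in the fit of 37 libraries (0.0477), with no low-count filter (0.0469) and in 5 of the 16 fits that left out 1 library. Segment counts do not tell rearranged from germline transcripts.

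The Trbv13 segments lie close together on chromosome 6. Trbv13-1 and Trbv13-3 rose by 2.25 ± 0.33 (9.85 ± 5.30 to 46.7 ± 15.6 CPM) and 2.41 ± 0.34 (2.98 ± 1.47 to 15.7 ± 3.80), with no overlap of libraries. Trbv13-2, which lies between them (41121396 to 41121832), ran from 23.4 through 49.4 to 57.6 CPM at DN2 and from 45.3 through 66.6 to 94.5 at DN3. Its log2 difference of 0.58 ± 0.17 did not pass (adjusted p = 0.0693), although it did in DESeq2 (0.0337), voom (0.0313), the fit of 37 libraries (0.0322) and without DN3 replicate 2 (0.0285), and the difference between the segments was not tested. Trbv12-2, which lies between Trbv13-1 and Trbv13-2, rose by 0.75 ± 0.17 with overlapping libraries. The last 60 bases of the GENCODE M21 transcripts of the 3 Trbv13 segments, 5′ to 3′, show how alike they are, with the codon of the conserved cysteine at the edge of CDR3 in capitals.
Trbv13-1: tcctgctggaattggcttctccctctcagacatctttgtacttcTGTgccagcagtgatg
Trbv13-2: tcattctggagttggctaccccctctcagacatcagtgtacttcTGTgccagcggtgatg
Trbv13-3: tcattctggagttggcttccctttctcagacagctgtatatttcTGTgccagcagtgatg
Over the whole transcripts Trbv13-1 and Trbv13-2 are 87.1% identical, Trbv13-1 and Trbv13-3 84.4% and Trbv13-2 and Trbv13-3 90.6%, so reads may have been divided between them and each single value is uncertain.

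The constant parts of the gamma and delta loci fell, where the beta constant sum (-0.20) had not passed. The summed gamma constant genes ran from 2195 to 4658 CPM at DN2 and from 1086 to 2101 at DN3, a difference of -1.04 (adjusted p = 0.000932). Tcrg-C1 alone ran from 1053 through a median of 2029 to 2654 CPM at DN2 and from 368 through 632 to 738 at DN3. No libraries overlapped, and it fell by 1.69 ± 0.17. The gamma joining sum and Trdc, the delta constant gene, differed by -0.93 and -0.74 (adjusted p = 0.0041 and 0.00124). The gamma and delta variable sums differed by 0.86 and 0.95 (adjusted p = 0.00506 for each). Tcrg-V1, Tcrg-V4 and Tcrg-V7 rose, and Trgv2 did not pass. Without DN2 replicates 2, 4 and 8 the gamma variable difference was 0.49 (adjusted p = 0.0501). Some gamma constant genes are alike in sequence, so the split of reads among these genes is uncertain.

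Of 10 tested genes of the gamma delta lineage, 5 were lower and 1 was higher, beside 2.52% and 1.11% of all genes tested. Besides Tcrg-C1 and Trdc the lower genes were Cd163l1 (the scavenger receptor SCART1, 58.6 ± 14.5 to 13.6 ± 11.1 CPM), Il17rb (143 ± 21.8 to 73.1 ± 25.6) and the kinase gene Blk. At the alpha locus, constant gene counts were low, at 0.948 to 5.66 CPM at DN2 and 3.02 to 10.4 at DN3 (1.20, adjusted p = 0.0041). The alpha variable sum differed by 0.43 (adjusted p = 0.00816), and by 0.37 (adjusted p = 0.0501) without DN2 replicates 2, 4 and 8. This sum includes segments named for both alpha and delta use, which the delta variable sum leaves out. Among them Trav15-1-dv6-1 differed by 1.86 and Trav15-2-dv6-2 by -0.25 on the log2 scale. Of 8 Trav segments tested singly, 0 passed.

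**Figure D3:**
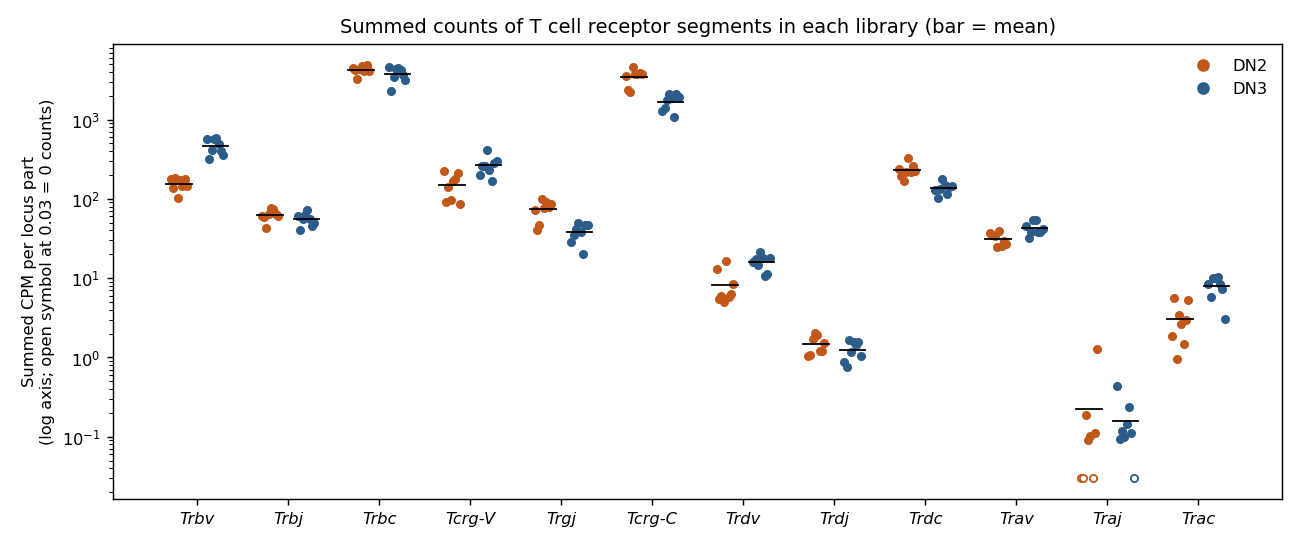
Summed CPM (log axis) of 12 parts of the T cell receptor loci in each DN2 and DN3 library, with means as bars. Trbv libraries separate upward at DN3 (101 to 181 against 316 to 580 CPM) and Tcrg-C libraries downward, while Trbj, Trbc and Trdj overlap.

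Surface receptors formed the group with the most falls in number. Of 19 cytokine receptor and surface genes tested, 9 were lower and none higher, beside 2.52% and 1.11% of all genes tested. Their median log2 fold change was -0.40. Cd53, a tetraspanin of white blood cells, ran from 58.6 through 105 to 127 CPM at DN2 and from 10.7 through 18.8 to 30 at DN3 and fell by 2.37 ± 0.21 (adjusted p = 2.5e-07).

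Ifngr1, a chain of the interferon gamma receptor, fell by 1.08 ± 0.15, with overlapping libraries. Il7r, the receptor for the survival cytokine interleukin-7, ran from 57.5 through 73.1 to 91.9 CPM at DN2 and from 26.7 through 53.2 to 58.1 at DN3 and fell by 0.64 ± 0.17 (adjusted p = 0.029). Its call was lost without DN2 replicates 2, 4 and 8 (adjusted p = 0.133) and in 7 of the 16 fits that left out 1 library. Bcl2, the survival gene downstream of that receptor, ran from 178 through 236 to 292 CPM at DN2 and from 103 through 134 to 147 at DN3 and fell by 0.89 ± 0.12 (adjusted p = 6.4e-05) with no overlap. It was the only 1 of 12 BCL2 family genes tested to pass.

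Of 17 chemokine receptor and adhesion genes, 3 were lower, beside 2.52% of all genes tested. They were the integrin chains Itga4 (185 ± 30.3 to 99.2 ± 14.5 CPM) and Itgb7, which pair with each other, and Klf2, a factor that drives exit and homing genes. Itgb7 was highest in DN2 replicate 8 (48.9 CPM) and lost its call without replicates 2, 4 and 8 (-1.69, adjusted p = 0.0806). Klf2 fell by 2.12 ± 0.45 and lost its call in the libraries without Xist (-1.94, adjusted p = 0.135). Of 14 genes of MHC class I presentation 3 were lower, H2-K1 (-0.68 ± 0.11), B2m (-0.58 ± 0.11) and H2-D1 (-0.58 ± 0.14), and H2-D1 lost its call without DN2 replicates 2, 4 and 8 (-0.47, adjusted p = 0.17). The class I gene H2-Q2 moved the other way and ran from 2.39 through 8.11 to 18.3 CPM at DN2 and from 29.9 through 51.5 to 93.4 at DN3 (2.59 ± 0.40, adjusted p = 0.000476). Class I genes are alike in sequence, and reads may be divided between them. Nkg7, a granule gene of NK and cytotoxic cells, ran from 174 through 274 to 461 CPM at DN2 and from 42.9 through 78.2 to 116 at DN3 and fell by 1.86 ± 0.19 without overlap. The other 4 tested of 12 NK and innate markers did not pass, and the list's sum was 262 to 578 CPM at DN2 and 134 to 355 at DN3.

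Growth and division genes were counted beside 1.11% higher and 2.52% lower of all genes tested. Of 30 genes of DNA replication, 30 of mitosis and 16 of the D cyclin and CDK group, edgeR called 0, with 5, 0 and 2 at an unadjusted p under 0.05. DESeq2 called 3, 0 and 0, all lower. Cdc20, the mitotic activator altered in this series, ran from 82.9 through a median of 116 to 308 CPM at DN2 and from 99.5 through 183 to 248 at DN3 (0.12 ± 0.33, adjusted p = 0.918). Its 3 highest DN2 values were in replicates 2, 4 and 8 (263, 308 and 240 CPM), and without them the difference was 0.86 (adjusted p = 0.0858). The same libraries held the highest DN2 sums of the mitosis genes (5728, 6389 and 5750 CPM, against at most 3812 in the other DN2 libraries and 2119 to 5448 at DN3). Of 30 ribosome biogenesis genes 3 were higher, Rrp9, Nolc1 and Ncl (nucleolin), by 0.52 ± 0.12, 0.53 ± 0.12 and 0.43 ± 0.10, and 17 had an unadjusted p under 0.05. The list's median log2 fold change was 0.29, and its sum was 5727 to 6676 CPM at DN2 and 7127 to 8523 at DN3 with no overlap. Rrp9 and Ncl lost their calls without DN2 replicates 2, 4 and 8 (adjusted p = 0.0637 and 0.074). Myc itself ran from 317 through 398 to 475 CPM at DN2 and from 416 through 504 to 711 at DN3 and did not pass (0.37 ± 0.11, adjusted p = 0.0744, but 0.0359 in DESeq2 and 0.0497 without DN2 replicate 3). Ldhb, a lactate dehydrogenase subunit, was the only 1 of 20 glycolysis genes to pass (0.93 ± 0.17, from 141 ± 46.3 to 269 ± 46.2 CPM). Of 24 respiratory chain genes edgeR called 0, with 0 at an unadjusted p under 0.05 and 0 called by DESeq2.

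By a rule that asked for a call, at least 5 CPM in 1 group and no overlap of libraries, 24 genes were eligible as higher and 75 as lower, and the 12 of each with the largest fold change were taken, of which 11 rises and 12 falls are given. The rises were led by Atoh8, a bHLH factor, which ran from 0 through a median of 1.87 to 11.8 CPM at DN2 and from 21.4 through 34.7 to 53.4 at DN3 (3.48 ± 0.62, adjusted p = 0.00256). Scn4b, a sodium channel beta subunit, ran from 2.67 through 10.1 to 40.1 CPM at DN2 and from 63.5 through 102 to 175 at DN3 (3.09 ± 0.46, adjusted p = 0.000644). Fam163b (2.87 ± 0.41), the ATP-gated channel P2rx1 (2.79 ± 0.45), H2-Q2, the synaptotagmin Syt13 (2.47 ± 0.27), Ogdhl (an oxoglutarate dehydrogenase-like enzyme, 2.27 ± 0.45), Lef1, Arhgef10l (2.10 ± 0.38), Plxdc1 (1.98 ± 0.36) and the calcium-dependent kinase Camk4 (1.67 ± 0.16) followed. Ogdhl lost its call without DN2 replicates 2, 4 and 8 (1.83, adjusted p = 0.0592) and in the fit of 37 libraries (adjusted p = 0.097). Relative to their level, the DN2 libraries were more widely spread than the DN3 libraries in most of these genes. In CPM the DN3 range was the wider one for each of these 11 rises.

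The falls were led by Hhex and Fut7, a fucosyltransferase that makes selectin ligands. Fut7 ran from 3.78 through a median of 6.94 to 14.8 CPM at DN2 and was seen in only 1 DN3 library, at 0.939. Cpa3, a carboxypeptidase known from mast cells and also from early T precursors, ran from 37.2 through 96.4 to 159 CPM at DN2 and from 0 through 2.25 to 3.64 at DN3. It fell by 5.58 ± 0.53 (adjusted p = 5.59e-06) and by 5.19 (adjusted p = 0.000111) without DN2 replicates 2, 4 and 8. Emilin2 (an extracellular matrix glycoprotein, -4.95 ± 0.69), Cd74 (the MHC class II invariant chain, -4.80 ± 0.75), Mdga1 (-4.56 ± 0.87), Spi1, the adhesion receptor Adgrg3 (-3.43 ± 0.46), the actin-severing Scin (-3.14 ± 0.54), Bpifc (-3.09 ± 0.57) and the signalling adaptors Gab2 (-2.89 ± 0.49) and Lat2 (-2.84 ± 0.33) completed the 12. Cd74 is among the dendritic and B cell genes whose sums were highest in DN2 replicate 8.

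**Figure D4:**
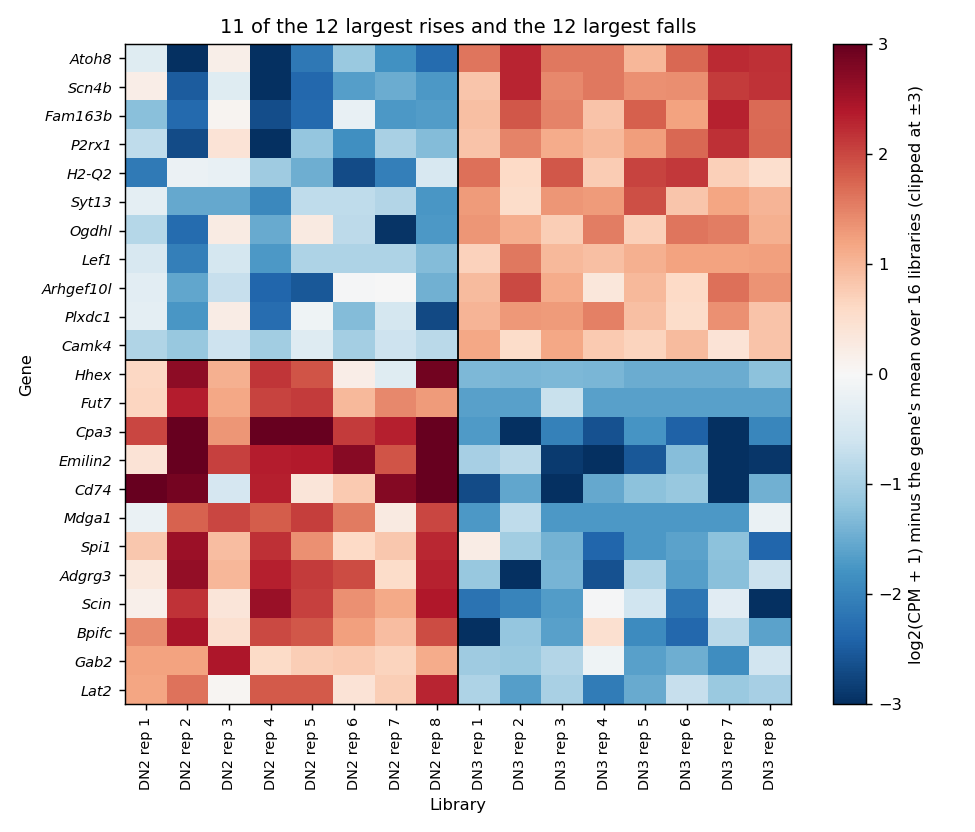
log2(CPM + 1) minus each gene's mean over 16 libraries (red above, blue below, clipped at ±3) for 11 of the 12 largest rises and the 12 largest falls by library. DN2 replicates 2, 4 and 8 hold the deepest red for Hhex and Spi1, and every row separates the stages, as the rule of choice required.

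Set in the whole series of sorted control stages (37 libraries: 6 DN1, 8 DN2, 8 DN3, 8 DN4 and 7 double positive, DP), the DN2 to DN3 step had the fewest calls of its neighbours in 1 fit. It gave 664 calls of 15278 genes tested, against 7409 for DN1 to DN2 and 2291 for DN3 to DN4, and the steps share libraries. The contrast of the DN2 to DN3 change minus the DN3 to DN4 change was above 0 for 435 genes (2.85%) and below 0 for 499 (3.27%). Of the 138 genes called higher at DN3 in the 16 libraries, 53 were above 0 and 1 below. Of the 314 called lower, 91 were below 0 and 14 above. The same DN2 and DN3 libraries chose these genes and entered the contrast, so a lean in these directions came with the choice.

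Several genes reached a peak at DN3. Atoh8 had means of 1.29, 3.48, 37.8 and 0.0733 CPM at DN1, DN2, DN3 and DN4 and was at 0 at DP. The difference of the 2 steps was 12.20 for Atoh8 (adjusted p = 4.01e-08) and 8.62 for Scn4b (2.78e-10), which had means of 13.6, 114 and 2.41 CPM from DN2 to DN4. Dtx1 had means of 118, 103, 274, 38.3 and 17.4 CPM from DN1 to DP (step difference 4.26, adjusted p = 6.45e-06). Lef1 had means of 73.3, 98.2, 439, 334 and 286 CPM from DN1 to DP (2.56, adjusted p = 5.26e-08), and its DN3 to DN4 change did not pass (-0.40, adjusted p = 0.114). Id3 had 48.1, 102, 271 and 340 CPM from DN2 to DP, and its 2 steps did not differ by the test (-0.33, adjusted p = 0.699). These genes were called between DN2 and DN3 in the same libraries, so the p-values of the step difference are not independent of that choice.

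Other genes had moved before this step. Bcl11b rose from DN1 to DN2 by 1.87 (192 to 700 CPM, adjusted p = 2.83e-09) and Tcf7 by 1.52, and neither was called between DN2 and DN3. Ptcra rose by 7.07 from DN1 to DN2 (2.47 to 321 CPM) and Rag1 by 6.60. Nfe2 and Cpa3 peaked at DN2, at 108 and 91.3 CPM against 3.80 and 2.66 at DN1 and 16.7 and 1.94 at DN3. Erg was near 0 at DN1 (0.0258 CPM), 29 at DN2, 9.41 at DN3 and 0.0141 at DN4. Spi1 had means of 45.5, 14.6, 1.21, 4.75 and 0.169 CPM from DN1 to DP and Hhex 58.1, 8.43, 0.0761, 5.89 and 0.144, and the rise of Hhex from DN3 to DN4 passed (adjusted p = 0.000136). Igkc, the kappa constant gene, was also present in DN4 libraries, at a mean of 123 CPM against 2.04 at DN3, and its part in that rise was not tested.

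**Figure D5:**
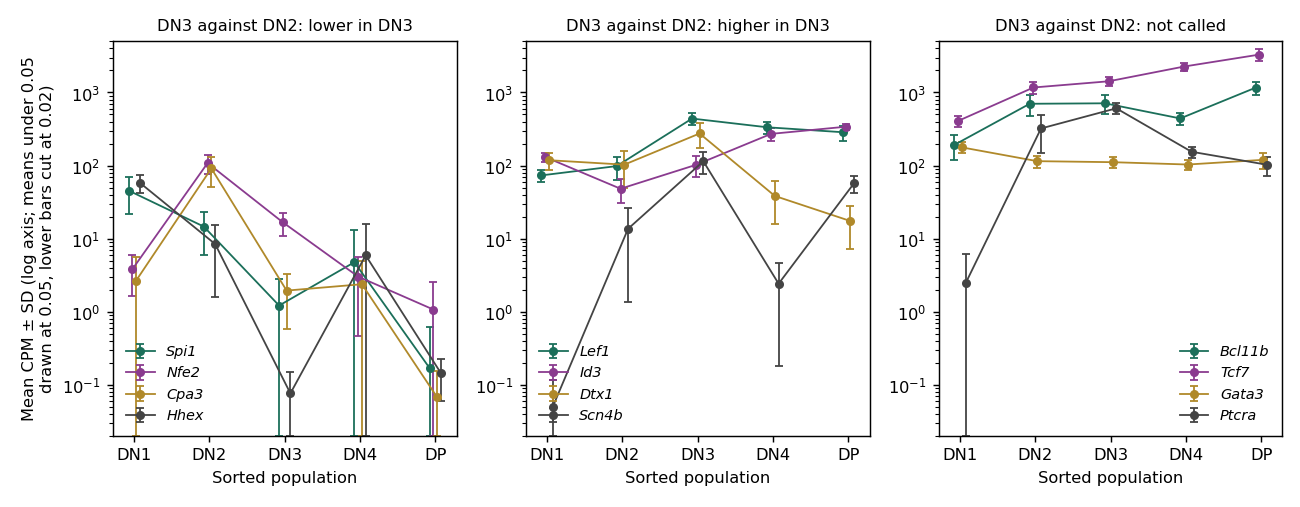
Mean CPM ± SD (log axis) of 6 DN1, 8 DN2, 8 DN3, 8 DN4 and 7 DP libraries for genes lower at DN3, higher at DN3 and not called between DN2 and DN3. Nfe2 and Cpa3 peak at DN2, Dtx1 and Scn4b at DN3, and Bcl11b and Ptcra have risen by DN2.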

How the data were processed

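Total RNA from sorted thymocytes was sequenced on a HiSeq2000, per the labels. Per the submitters' processing notes the tools were FastQC, STAR 2.5.3a and RSEM 1.3.0, with the build GRCm38 (mm10). The authors deposited expected counts (RSEM's estimated counts per gene), which were whole numbers in all 50686 rows and so needed no rounding. The sources used here give no strandedness or annotation release, so antisense and overlapping genes are uncertain. GENCODE M21 named 50462 genes, and coordinates are its own.

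Of 81 libraries deposited together, 16 were compared. Genes were kept by filterByExpr, scaled by TMM and tested 2-sided in R 4.3.3 by the robust quasi-likelihood test of edgeR 4.0.16, with Benjamini-Hochberg adjustment over all genes. SE came from the fold change and its F statistic. Named genes were 31 set regulators, the 12 largest changes per direction and up to 4 called members per list and direction. The members, lists and rules were chosen with earlier results of these data known. Alternatives were DESeq2 1.42.0, limma 3.58.1 voom with quality weights, RLE factors, no low-count filter, other sets of libraries and, added after seeing the data, DN2 without replicates 2, 4 and 8 and splits by Xist (at 100 CPM). The fits were tested on simulated data. A few genes counted in the lists and rankings are not reported here by name.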

Additional observations from a re-analysis of the deposited data

Results flagged for a closer look

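Of 240 sets of 8 values checked (each named gene, list sum and locus sum in each stage), 23 had 1 library apart from the other 7 by a gap over Dixon's critical share of the group's range. Chance flags about 1 in 20 sets of independent, normally spread values. The sets here are CPM values, some near 0, from the same libraries, so that rate need not hold. DN2 replicate 8 stood above the rest for Igkc (17680 CPM against 4991 in the next library, gap 0.718 of the range), Jchain (0.617), the B and plasma cell sum (0.676), the red cell sum (51.8 against 12.7 CPM, 0.767) and the alpha joining sum (1.27 against 0.19 CPM, 0.851). DN2 replicate 1 was high for Cd3e (0.569) and Trp53 (0.583) and low for Ncl (539 against 760 CPM, 0.559). DN2 replicate 2 was high for Flt3 (0.828), replicate 3 for P2rx1 (0.617) and Gab2 (22.8 against 9.23 CPM, 0.789), replicate 6 high for Bcl11a (0.532) and low for Rpl27 (0.567), and replicate 7 high for Id2 (0.538).

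Among the DN3 libraries, replicate 1 was high for Spi1 (5.07 against 1.51 CPM, 0.702) and replicate 3 was the only 1 with Fut7 counts (0.939 against 0 CPM, 1). Replicate 4 was high for Bpifc (0.634) and H2-Aa (0.661), replicate 6 for Myc (711 against 543 CPM, 0.571), and replicate 5 for Lmo2 (0.616), Syt13 (0.554), Ifngr1 (0.552) and Cd163l1 (38.4 CPM, 0.554). Their causes were not tested.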

How the results depend on the processing

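No paired analysis was possible from the labels, because the labels carry no replicate numbers that could tie a DN2 to a DN3 library. In the listed order of samples, each DN2 library directly before a DN3 library was like it in having or lacking Xist. Whether such neighbours came from the same mouse is not stated, and pairing by order was not tested. Every fit and the permutation test treated the libraries as independent, so their p-values do not allow for shared mice. The 452 calls (138 higher, 314 lower) became 722 with DESeq2 (238 and 484), which held all 452. Higher calls were 230 with voom, 223 with Xist as a covariate and 216 in libraries without Xist. Lower calls were 480 in the fit of 37 libraries. Without DN2 replicates 2, 4 and 8 there were 196 calls (62 and 134), and in the 4 DN2 and 3 DN3 libraries with Xist 32 (10 and 22). Fewer libraries entered both fits. Leaving out 1 library at a time gave 377 to 543 calls. Of 73 named genes called, 56 lost the call in libraries with Xist, 14 in those without it, 17 without DN2 replicates 2, 4 and 8, 10 in the fit of 37 libraries, 6 with voom and 4 with no low-count filter, and none with DESeq2, RLE factors or Xist as a covariate.

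Without DN2 replicates 2, 4 and 8 the gamma variable sum (0.49) and the alpha variable sum (0.37) lost their calls. The Trbj sum ranged from -0.26 to -0.13 when 1 library was left out, and it passed without DN2 replicate 3 alone. The alpha joining sum, at most 11 counts in a library, changed sign with a pseudocount of 0.1 (0.16), without DN2 replicates 2, 4 and 8 (0.0928) and over fits leaving out 1 library (-0.0772 to 0.106). Among single genes that were not called, signs also turned. Leaving out 1 library gave ranges of -0.0783 to 0.132 for Bcl11b, -0.101 to 0.0150 for Gata3, -0.0125 to 0.196 for Rag2 and -0.0197 to 0.11 for Trbc2. Values without DN2 replicates 2, 4 and 8 were -0.25 for Bcl11b, -0.0734 for Cd3e, -0.12 for Notch1 and 0.0564 for Nrarp. In libraries with Xist they were 0.0131 for Kit, -0.0267 for Cd3e and -0.30 for Trbc2, without Xist -0.13 for Cdc20, and with Xist as a covariate -0.0115 for Trbc2. The cause was not tested. Depth limits Hhex, Fut7, Lmo2, Lyl1 and Flt3 most, since their counts in a stage were few.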

Other observations

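Other groups were counted beside shares of 1.11% higher and 2.52% lower over all genes tested. Of 18 interferon-inducible genes tested, 2 were lower at DN3, Ifi27l2a (18.4 ± 15.5 to 2.29 ± 2.47 CPM, SD, n = 8) and the factor gene Irf7 (48.2 ± 18.2 to 24.9 ± 6.95). The highest DN2 values of Ifi27l2a were in replicates 2, 4 and 8 (23.2, 29.1 and 50.8 CPM), and without them its difference went from -3.01 to -1.95 and lost its call (adjusted p = 0.178). Of 20 chromatin modifier genes, the DNA methyltransferase Dnmt3b alone passed and fell by 0.65 ± 0.14 on the log2 scale, from 186 ± 33.4 to 118 ± 23.7 CPM, a call that was lost without DN2 replicates 2, 4 and 8 (adjusted p = 0.0815, edgeR). Of 30 cytosolic ribosomal protein genes Rpl5 and Rpl27 were higher, by 0.70 ± 0.19 and 0.45 ± 0.12, calls lost in 7 and 9 of the 16 fits that left out 1 library and, for Rpl27, without DN2 replicates 2, 4 and 8 (adjusted p = 0.134), and many such genes have near-identical pseudogenes. Of 9 tested markers of double positive thymocytes 2 were higher, among them Ets2. Of 8 tested markers of mature and NKT cells edgeR called 0, with 1 at an unadjusted p under 0.05 and 1 called by DESeq2. Of the stromal markers 2 were tested and Pecam1, which blood cells also express, fell by 0.61 ± 0.13.

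Libraries with the Cdc20(D/AAA) genotype were not part of the comparison and were set on the same scale. In 5 DN3 libraries of that genotype, Lef1 ran from 344 to 542 CPM, Ptcra from 494 to 860, Dtx1 from 218 to 423, Spi1 from 0 to 1.66 and Cpa3 from 0 to 8.33. The lone DN2 library of that genotype held 76.9 CPM of Lef1, 170 of Ptcra, 71.9 of Dtx1, 10.4 of Spi1, 128 of Cpa3 and 4994 of Igkc. No test was made with 1 library.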
